A study of Caenorhabditis elegans with 2 samples.

Results

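The 7 genes described here, hsp-3, hsp-4, xbp-1, ire-1, pek-1, atf-6 and atf-4, carry the unfolded protein response of the endoplasmic reticulum in Caenorhabditis elegans. They were listed by name, but with earlier results of these data known. All 7 were found once each among 19973 nuclear protein-coding genes of the WBcel235 annotation. The data were LIN-13 peaks from chromatin immunoprecipitation sequencing of whole L4 larvae, labelled as a pool of male and female animals, in 2 biological replicates that formed the only group. The animals were of strain OP49, which has the unc119(ed3) mutation and the transgene wgIs49, holding unc119 and a lin-13 copy with TY1, EGFP and FLAG tags. Per the labels, the immunoprecipitation was against eGFP-lin-13, so the peaks are those of the tagged copy. The labels name neither a knockdown nor a stress treatment, and signal from all tissues was mixed. LIN-13, a protein with many zinc fingers, belongs to the synMuv B class, whose genes restrain vulval fate in larvae. Sequencing depth was unknown because the files hold no read counts.

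When unfolded proteins build up in the endoplasmic reticulum (ER), sensors in its membrane signal to the nucleus and to the ribosome. IRE-1 cuts the xbp-1 mRNA, whose spliced form makes an active transcription factor, PEK-1 phosphorylates eIF2α and so lowers translation, and ATF-6 is a membrane-bound transcription factor. The genes hsp-3 and hsp-4 encode the worm's BiP chaperones, and hsp-4 is the usual reporter of the response. ATF-4 belongs to the family of transcription factors that are made when eIF2α is phosphorylated.

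LIN-13 peaks lay at 6 of the 7 genes, and at 5 of them just upstream of a 5′ end. The irreproducible discovery rate (IDR) list of the authors holds 2141 peaks, the highest of 30000 relaxed peaks called on the pooled replicates. Counting summits in a gene or within 2 kb of it, hsp-3, xbp-1, atf-6, ire-1, atf-4 and hsp-4 had an IDR summit, as had 15.8% of all protein-coding genes. At a distance of at most 500 bp from a 5′ end (the annotated start of any protein-coding transcript), hsp-3, xbp-1, atf-6, ire-1 and atf-4 had one, as had 6.99% of all protein-coding genes. The members were listed with these results known, so no test was run over them. The 6 genes held 7 IDR peaks, because xbp-1 had one at each end. No IDR summit lay at pek-1, whose highest pooled peak had rank 2655, 514 places below the last IDR peak.

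**Figure D1:**
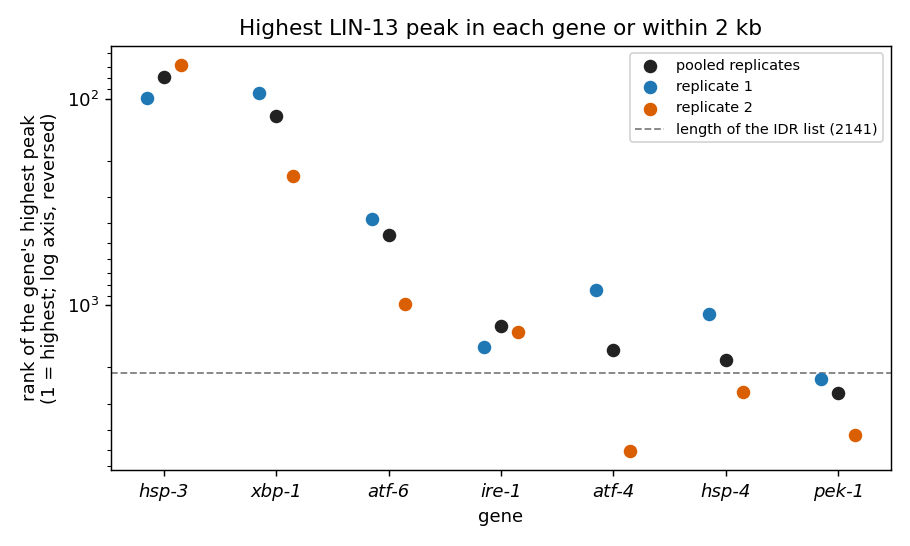
Rank of the highest LIN-13 peak in each gene or within 2 kb (y axis, logarithmic, rank 1 at the top) for the 7 genes (x axis) in the pooled list and in each replicate's list; the dashed line marks rank 2141. The genes hsp-3 and xbp-1 had ranks of 237 or better in all 3 lists, and pek-1 was below the line in all of them.

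The sequences at the summits are shown because the members' peaks differed in base composition and in the motifs they held. Each runs up to 100 bp to either side of the pooled summit and stops where an annotated untranslated region begins. All were read from the WBcel235 genome (ce11) and are given 5′ to 3′ on the strand of the gene. Capitals mark matches on either strand to the motifs searched, which are described further on, and sequences without capitals held none. The summit is base 101 of each sequence, except at the 3′ end of xbp-1, where it is base 31. The last sequence is that of the highest pooled peak at pek-1, which is not an IDR peak.
hsp-3 (chrX:6092125-6092274, minus strand): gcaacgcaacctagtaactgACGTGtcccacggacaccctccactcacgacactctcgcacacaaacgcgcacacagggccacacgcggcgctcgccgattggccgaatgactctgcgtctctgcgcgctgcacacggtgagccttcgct
hsp-4 (chrII:7350406-7350606, minus strand): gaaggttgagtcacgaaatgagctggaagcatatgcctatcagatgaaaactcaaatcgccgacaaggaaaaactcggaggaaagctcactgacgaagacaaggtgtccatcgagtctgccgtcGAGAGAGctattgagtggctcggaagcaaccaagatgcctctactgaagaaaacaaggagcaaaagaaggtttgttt
xbp-1 5′ end (chrIII:4193682-4193808, plus strand): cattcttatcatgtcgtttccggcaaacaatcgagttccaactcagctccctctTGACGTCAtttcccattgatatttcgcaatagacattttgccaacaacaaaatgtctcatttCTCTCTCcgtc
xbp-1 3′ end (chrIII:4195359-4195489, plus strand): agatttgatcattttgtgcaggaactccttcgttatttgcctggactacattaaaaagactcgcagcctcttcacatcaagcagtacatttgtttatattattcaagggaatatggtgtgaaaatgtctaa
ire-1 (chrII:8124963-8125163, minus strand): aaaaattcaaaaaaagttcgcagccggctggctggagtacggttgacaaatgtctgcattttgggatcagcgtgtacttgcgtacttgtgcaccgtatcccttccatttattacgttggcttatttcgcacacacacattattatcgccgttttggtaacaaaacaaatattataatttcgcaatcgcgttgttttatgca
atf-6 (chrX:12480547-12480747, plus strand): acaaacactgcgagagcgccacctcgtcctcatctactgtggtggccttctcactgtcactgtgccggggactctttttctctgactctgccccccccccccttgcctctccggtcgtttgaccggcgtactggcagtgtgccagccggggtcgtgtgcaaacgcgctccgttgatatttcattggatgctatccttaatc
atf-4 (chrX:14810811-14810964, minus strand): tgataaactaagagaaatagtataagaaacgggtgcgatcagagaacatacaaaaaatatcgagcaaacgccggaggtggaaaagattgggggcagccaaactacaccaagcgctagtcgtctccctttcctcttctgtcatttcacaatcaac
pek-1 (chrX:11414939-11415139, minus strand): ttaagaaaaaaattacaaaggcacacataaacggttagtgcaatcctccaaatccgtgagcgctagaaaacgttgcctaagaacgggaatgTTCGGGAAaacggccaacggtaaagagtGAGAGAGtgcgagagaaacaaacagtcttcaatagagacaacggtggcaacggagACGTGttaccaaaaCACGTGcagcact

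The BiP genes had LIN-13 peaks of unlike height and place. At hsp-3 (WBGene00002007, chromosome X, 6089028 to 6092124, minus strand), the IDR peak ran from 6092156 to 6092267, with its summit in intergenic sequence 50 bp upstream of the outermost 5′ end. Its signal value was 168.5 in the pooled list (rank 79), 87.93 in replicate 1 (rank 99) and 78.87 in replicate 2 (rank 69). The peak was high in both replicates. Signal values are those of the authors' peak caller, with no stated scaling, and are compared only within a list or by rank unless said otherwise. Only 144 protein-coding genes (0.721%) had a pooled peak this high in the gene or within 2 kb. The peak was 112 bp wide, whereas 336 bp was the commonest width and 7.54% of nuclear IDR peaks were narrower than that. The relaxed pooled list had 6 more summits at hsp-3, the highest with signal value 32.01 (rank 3250), 150 bp past the 3′ end.

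At hsp-4 (WBGene00002008, chromosome II, 7350112 to 7352645, minus strand), the IDR peak lay inside the gene, not at its start. It ran from 7350338 to 7350673, with its summit in a coding exon, 394 bp before the 3′ end and 823 bp downstream of the nearest annotated 5′ end. Of 2121 nuclear IDR summits, 45 (2.12%) lay in a coding exon, and 27 (1.27%) did so more than 500 bp from a protein-coding 5′ end. The signal value of the peak was 43.59 in the pooled list (rank 1845), 33.16 in replicate 1 (rank 1101) and 17.2 in replicate 2 (rank 2659). The peak was thus among the 2141 highest in replicate 1 and outside them in replicate 2. In replicate 2 the highest summit at hsp-4 was another one, 284 bp past the 3′ end (signal value 17.3, rank 2633). The start of hsp-4 held weaker summits, 98 bp upstream of a 5′ end (pooled signal value 22.18, rank 6256) and in a coding exon 339 bp downstream of one (29.92, rank 3640). In replicate 1 alone a summit 385 bp downstream of a 5′ end reached rank 1951.

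The hsp-3 and hsp-4 coding sequences resemble each other, so reads could in principle be shared. Of the 336 bp of the hsp-4 peak, 252 aligned to hsp-3 with 77.8% identical bases, and the longest identical run in the alignment was 23 bp. The matching stretch of hsp-3 (6089498 to 6089756) overlapped 0 of the 30000 pooled relaxed peaks. Whether reads were shared between these genes was not tested.

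**Figure D2:**
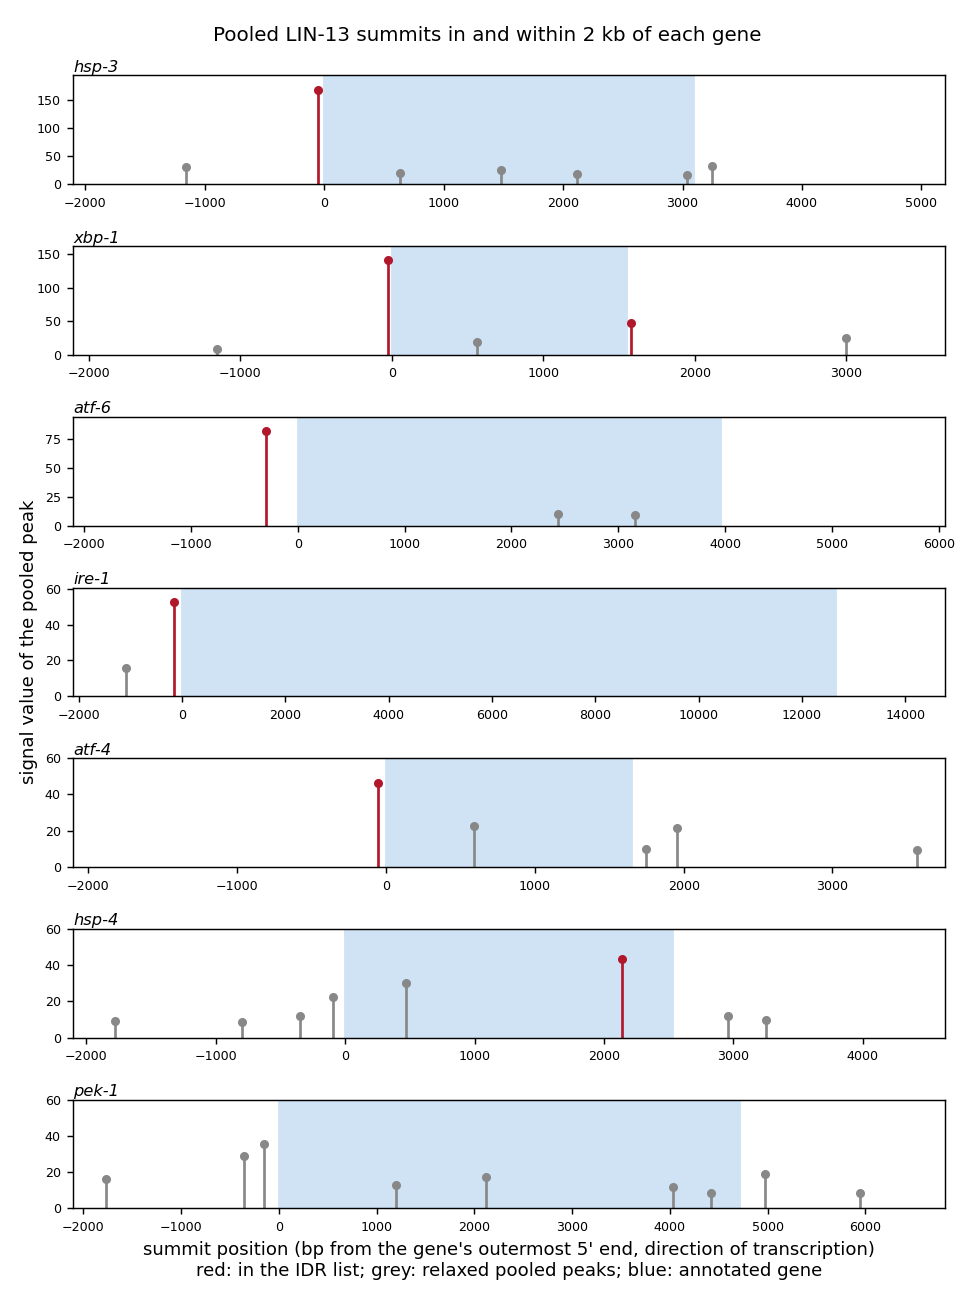
Pooled LIN-13 summits in each gene and within 2 kb of it. The x axis is the distance in bp from the gene's outermost 5′ end in the direction of transcription, the y axis the signal value of the pooled peak (axes differ between genes), red marks IDR peaks, grey the other relaxed peaks and blue the annotated gene. The red summits stand at or just upstream of position 0, except those 2139 bp into hsp-4 and at the 3′ end of xbp-1.

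Of the sensors, atf-6 had the highest peak, ire-1 one near the middle of the IDR list, and pek-1 none in it. At atf-6 (WBGene00000222, chromosome X, 12480948 to 12484904, plus strand), the peak ran from 12480479 to 12480814, with an intergenic summit 301 bp upstream of the 5′ end. Its signal value was 82.03 in the pooled list (rank 459), 50.0 in replicate 1 (rank 385) and 27.86 in replicate 2 (rank 983). It was the only pooled summit upstream of the gene within 2 kb, and the 2 others lay inside the gene with signal values of 9.853 and 8.701, near the lowest of the list (8.142).

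At ire-1 (WBGene00002147, chromosome II, 8112243 to 8124910, minus strand), the peak ran from 8124895 to 8125230, with an intergenic summit 153 bp upstream of the outer of its 2 annotated 5′ ends. Its signal value was 52.9 in the pooled list (rank 1256), 28.03 in replicate 1 (rank 1602) and 23.98 in replicate 2 (rank 1354). The ranks differed little between the replicates. Across the 12668 bp of the gene itself the pooled list had 0 summits, and 1 further summit lay 1081 bp upstream (signal value 15.74, rank 11214).

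At pek-1 (WBGene00003970, chromosome X, 11410176 to 11414887, minus strand), 9 relaxed pooled summits lay in the gene or within 2 kb, the most of the 7 genes, against a median of 2 over all protein-coding genes, whose lengths differ. The highest lay 152 bp upstream of the 5′ end (signal value 35.77, rank 2655), with another 352 bp upstream (29.17, rank 3815). The lowest IDR peak had a signal value of 40.1. In replicate 1 the peak next to the 5′ end had a signal value of 23.61 (rank 2267), and in replicate 2 one of 12.1 (rank 5193). Replicate 2 had a higher summit at the other end of pek-1, 283 bp past the 3′ end (signal value 13.47, rank 4270). Even so, 3725 genes (18.7%) had a pooled peak at least as high as that of pek-1, so its place was above that of most protein-coding genes.

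Of the transcription factor genes, xbp-1 had peaks at both ends. At xbp-1 (WBGene00006959, chromosome III, 4193809 to 4195358, plus strand), the higher ran from 4193614 to 4193949, with its summit 27 bp upstream of the first 5′ end. Its signal value was 140.8 in the pooled list (rank 122), 89.4 in replicate 1 (rank 94) and 50.49 in replicate 2 (rank 237). Only 228 protein-coding genes (1.14%) had a pooled peak this high. The lower peak ran from 4195221 to 4195556, with its summit 31 bp past the 3′ end, and 69 nuclear IDR summits (3.25%) lay within 100 bp of a protein-coding 3′ end and not within 500 bp of a 5′ end. Its signal value was 46.92 in the pooled list (rank 1601), 28.32 in replicate 1 (rank 1574) and 20.46 in replicate 2 (rank 1879). Both peaks were among the 2141 highest of each replicate. The next gene downstream, asd-1, began 1896 bp beyond this summit.

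At atf-4 (WBGene00000221, chromosome X, 14809156 to 14810810, minus strand), the peak ran from 14810696 to 14811031, with its summit 54 bp upstream of the outermost 5′ end. Its signal value was 46.12 in the pooled list (rank 1651), 36.95 in replicate 1 (rank 842) and 12.24 in replicate 2 (rank 5080). The replicates thus disagreed most at this gene, where the peak was inside the 2141 highest of replicate 1 and well outside those of replicate 2. In replicate 2 a summit in an intron of atf-4 had nearly the same value (12.21, rank 5099). The IDR summit of atf-4 also lay 60 bp upstream of the 5′ end of WBGene00303075. That is an unnamed protein-coding gene on the same strand that overlaps the start of atf-4. The highest IDR summits of hsp-3, xbp-1, hsp-4 and atf-4 each lay within 2 kb of at least 1 further protein-coding gene, namely C15H9.5, dnj-16, nhr-21 and, for atf-4, T04C10.3 besides WBGene00303075. These were 4 of the 6 members with an IDR summit (66.7%). Of the nuclear IDR summits with a protein-coding gene within 2 kb, 65.2% had more than 1, a share of summits and not of genes. Apart from that of atf-4, no IDR peak of the members lay within 500 bp of 5′ ends of several protein-coding genes, as 298 of the 2121 nuclear IDR summits (14.05%) did.

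**Figure D3:**
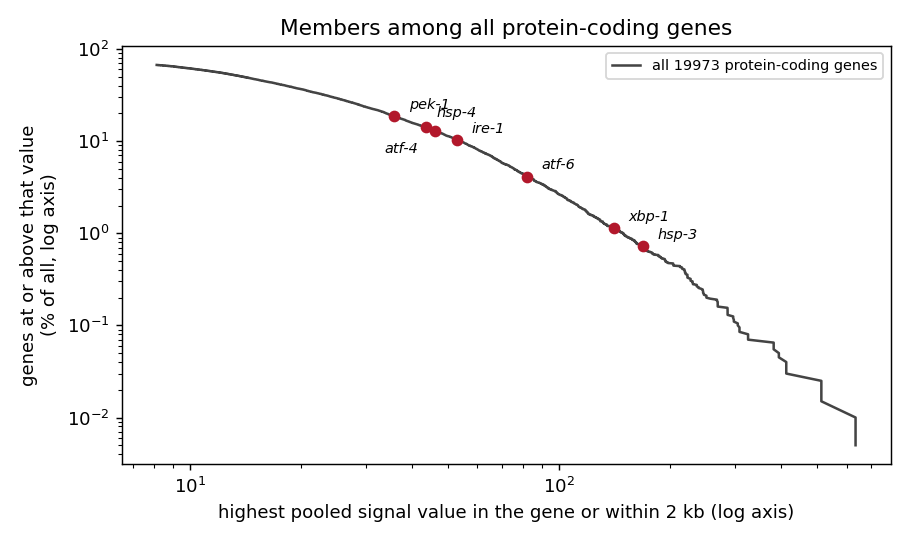
Share of the 19973 protein-coding genes (y axis, percent, logarithmic) whose highest pooled peak in the gene or within 2 kb is at or above a given signal value (x axis, logarithmic), with the 7 members as red points. The points run from pek-1 at 18.7% of genes to hsp-3 at 0.721%.

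By their highest pooled peak the order was hsp-3, xbp-1, atf-6, ire-1, atf-4, hsp-4 and pek-1. The first 2 changed places between the replicates, with hsp-3 ahead in replicate 2 and xbp-1 ahead in replicate 1, so their order does not differ beyond the replicates. The same holds among ire-1, atf-4 and hsp-4, since atf-4 (rank 842) and hsp-4 (rank 1101) were ahead of ire-1 (rank 1602) in replicate 1, and ire-1 (rank 1354) was ahead of both in replicate 2. The last place was not stable either, since pek-1 (rank 4270) was ahead of atf-4 (rank 5080) in replicate 2. The gene atf-6 ranked after hsp-3 and xbp-1 and ahead of the other members in both replicates. Over all protein-coding genes, 67.2% had a pooled relaxed peak in the gene or within 2 kb, and the median of their highest signal values was 21.89, below that of each of the 7 genes.

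The 5 IDR summits at 5′ ends lay 27, 50, 54, 153 and 301 bp upstream of them, at xbp-1, hsp-3, atf-4, ire-1 and atf-6. Of the 2121 nuclear IDR summits, 1131 (53.3%) lay within 500 bp of a protein-coding 5′ end, at a median distance of 183 bp, and 88.2% of those were upstream. Many worm transcripts are trans-spliced, and their annotated 5′ ends then lie downstream of where transcription starts. The distance from a summit to that start may thus be shorter or longer than the one given. The nearest other IDR summit was between 1607 bp (the pair at xbp-1) and 41768 bp (hsp-4) away, against a median of 8530 bp over nuclear IDR summits.

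Of the 7 IDR peaks at these genes, 5 overlapped one of the 2141 highest peaks of both replicates, against 60.9% of all nuclear IDR peaks. Those at hsp-4 and atf-4 did so in replicate 1 only. Signal values were higher in replicate 1 at all 7 peaks, as at 72.5% of the nuclear IDR peaks, and the scaling between the replicates is not stated. The ratio of replicate 1 to replicate 2 was 1.11 at hsp-3 and 1.17 at ire-1, below the median of 1.29 over 2114 nuclear IDR peaks with a peak in both lists. It was 1.38 at the 3′ end of xbp-1, 1.77 at its 5′ end, 1.79 at atf-6 and 1.93 at hsp-4. At atf-4 it was 3.02, which 3.78% of those peaks reached. With 2 replicates no test of these differences was made.

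**Figure D4:**
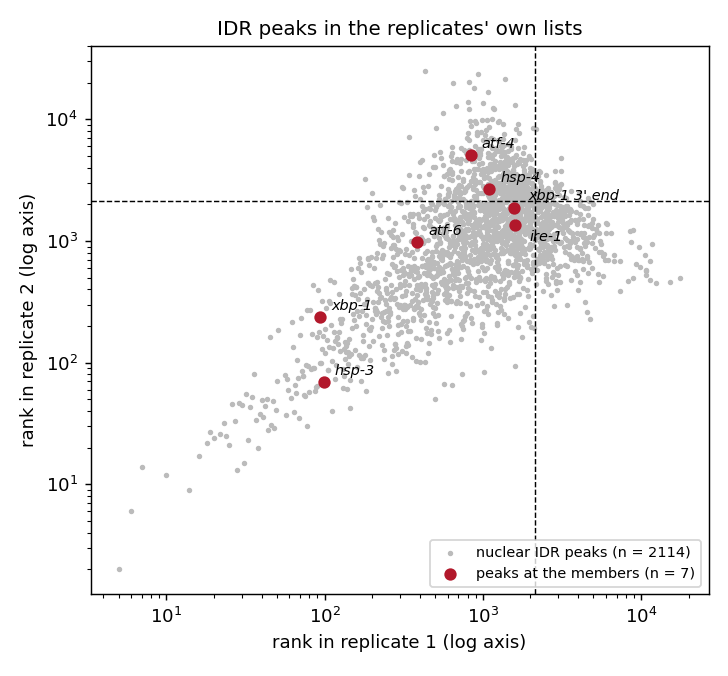
Rank in replicate 1 (x axis) against rank in replicate 2 (y axis), both logarithmic, of the 2114 nuclear IDR peaks with a peak in both replicates' lists (grey) and of the 7 peaks at the members (red); dashed lines mark rank 2141. The points of hsp-4 and atf-4 lie above the horizontal line, at ranks 2659 and 5080 in replicate 2.

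The peaks of the nuclear list closest in rank to each member's highest peak, over the pooled list and both replicates' lists, are given by their nearest protein-coding 5′ end. For hsp-3 these were scc-2, nipi-3 and Y77E11A.7, at distances of 0.0245 to 0.0829 in log10 rank. For xbp-1 they were atfs-1, C17H12.2 and nspc-17 (0.0969 to 0.105), the first of which encodes a regulator of the mitochondrial unfolded protein response. For atf-6 they were T28F4.1, cox-4 and F09E5.11 (0.0395 to 0.0622), and for ire-1 gcn-1, orc-3 and ptr-21 (0.0328 to 0.0378). For atf-4 they were C30G4.4, ins-37 and F08G2.8 (0.0403 to 0.0595), and for hsp-4 hpo-19, did-2 and nhr-3 (0.046 to 0.064). Of these 18 peaks, 5 lay more than 2 kb from the 5′ end they are named by, those named by gcn-1 (17743 bp, the farthest), ptr-21, atfs-1 (3885 bp), nhr-3 (3253 bp) and C30G4.4 (2745 bp). The likeness is one of rank over 2 replicates and their pool only.

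The members' summit windows differed in base composition. Over the 301 bp around the summit, GC content was 58.1% at hsp-3 and 53.8% at atf-6, values reached by 1.04% and 4.34% of the nuclear IDR summit windows. The other IDR windows held 45.2% at atf-4, 42.2% at the 5′ end of xbp-1, 41.5% at hsp-4, 36.9% at ire-1 and 36.5% at the 3′ end of xbp-1, against a median of 40.9% and quartiles of 36.2% and 45.5% over all 2121 windows. The atf-6 sequence above has an unbroken run of C that includes its summit. At ire-1, 39.9% of the window was soft-masked repeat, the highest share of these windows, and at hsp-3 it was 0%.

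The motifs searched in the 301 bp windows, on both strands and by exact letters, were those of the response and of promoters in general. The members had 8 windows, those of their 7 IDR peaks and that of the highest pooled peak at pek-1. The pek-1 window is not among the 2121 nuclear IDR windows that give the shares of all windows. The unfolded protein response element TGACGTGG was in none of the 8 windows, and in 1.32% of all 2121 nuclear IDR windows. Its core ACGTG, which the longer element contains, was in 3 of the 8 (hsp-3, the 5′ end of xbp-1 and pek-1), against 32.1% of all windows. At pek-1 it occurred 5 times, a pair of these overlapping on opposite strands as CACGTG. The cyclic AMP response element TGACGTCA was at the 5′ end of xbp-1, where its first base lay 46 bp upstream of the summit, and in 1.84% of all windows. The ATF4-type core TGATGCAA (1.65% of all windows) and the ER stress response element, CCAAT and CCACG separated by 9 bases (0.0471%), were in none of the 8.

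Of the general motifs, GAGAGAG was in 4 of the 8 windows (hsp-3, hsp-4, the 5′ end of xbp-1 and pek-1), against 23.1% of all windows. At hsp-4 it lay within the coding exon. The heat shock pair TTCNNGAA was at hsp-4 and pek-1 (13.9% of all windows). The E2F-like letters TTCCCGCC (2.17%) and TTGGCGCC (1.7%) and the SP1-like GGGCGG (13.7%) were in none of the 8. A match is a description of the letters, and its absence says only that they are not in that window.

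Other genes of the ER protein pathway had IDR peaks in 27 of 51 cases (52.9%) in the gene or within 2 kb, and 19 (37.3%) had one within 500 bp of a 5′ end. Over all protein-coding genes these shares were 15.8% and 6.99%, beside which the counts of each list below are to be read. The ER folding genes had 11 of 15 (7 at a 5′ end). Their highest peaks were at pdi-6, a protein disulfide isomerase gene (pooled signal value 141.7, rank 119), pdi-3, of the same family (127.5, rank 154), and crt-1, which encodes calreticulin (107.4, rank 238). Below them came uggt-1 (93.68), enpl-1, the ER Hsp90 gene (92.2), pdi-2 (81.5), pdi-1 (60.9) and cnx-1, which encodes calnexin (53.87). The pdi-3 summit lay 649 bp and that of cnx-1 1852 bp upstream of the gene's nearest 5′ end. The genes dnj-27, dnj-7, uggt-2 and stc-1 had no IDR summit.

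Genes of ER entry and glycosylation had 5 of 10, all at a 5′ end, among them sec-61.B (227.0, rank 42), sec-61.G (160.5), dad-1, of the oligosaccharyltransferase (99.6), and sec-61.A (66.49). Genes of ER-associated degradation had the lowest share of these 4 lists, 4 of 16. They were cdc-48.1, whose AAA ATPase pulls proteins out of the membrane (412.1, rank 8), the ubiquitin-conjugating enzyme genes ubc-6 (76.98) and ubc-7 (64.82), and rad-23 (48.9). The ligase genes sel-11 (26.61, rank 4535) and marc-6 (32.89, rank 3100) and the sel-1 adaptor (10.68, rank 20896) were below the IDR list.

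Signalling partners had 7 of 10, of which 3 had a summit at a 5′ end. The eIF2 subunit genes eif-2beta (89.9), eif-2alpha, which encodes the substrate of PEK-1 (66.2), and eif-2gamma (51.89) each had one in the gene or within 2 kb. So had the CREB-family genes crh-1 (69.02), crh-2 (45.26) and let-607 (42.88), and rtcb-1 (55.65), whose ligase joins the cut xbp-1 mRNA. Of these highest summits, only those of crh-1 and eif-2gamma lay within 500 bp of the gene's 5′ end. That of eif-2beta lay 3091 bp and that of rtcb-1 2816 bp downstream of the nearest 5′ end, and that of eif-2alpha 1744 bp upstream. The summit at a 5′ end of eif-2beta was a lower one. The other kinase for eIF2α, gcn-2, had none (14.92, rank 12221). Of the 27 genes of these 4 lists with an IDR summit, 21 (77.8%) shared the highest one with another protein-coding gene within 2 kb. Of the nuclear IDR summits that had a protein-coding gene within 2 kb, 65.2% had more than 1. The first share counts genes and the second counts summits, where a shared summit counts once however many genes it has. The 2 shares are thus not like for like, and the share among all genes was not computed. All 4 genes of ER-associated degradation, all 5 of ER entry and glycosylation, 5 of the 7 signalling partners and 7 of the 11 folding genes were among the 21. The peaks of eif-2alpha and sec-61.A, for example, were within 2 kb of the ribosomal protein genes rla-1 and rps-18, so these peaks cannot be assigned to 1 gene.

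Among 9 genes of the Hsp70 family, hsp-3 and hsp-4 included, 7 had an IDR summit in the gene or within 2 kb and 6 at a 5′ end. Over all protein-coding genes the shares were 15.8% and 6.99%. After hsp-3 came hsp-110 (131.4), hsp-1, the cytosolic Hsc70 gene (129.2), and hsp-6, the mitochondrial one (100.3). The pair F44E5.4 and F44E5.5 (83.95 and 65.3) are neighbouring, similar copies, so their values are uncertain. The highest summit of F44E5.4 lay 2326 bp downstream of its nearest 5′ end, and that of F44E5.5 was within 2 kb of F44E5.4. For 6 of the 7 genes (85.7%) the highest IDR summit had another protein-coding gene within 2 kb, and that share among all genes was not computed. The hsp-4 peak was the lowest of the 7. Of 14 abu genes, which are known for rising when the response is blocked, 1 had an IDR summit (abu-4, 47.02, 7.14%), and 0 had one at a 5′ end. The summit lay 2624 bp downstream of the nearest 5′ end of abu-4 and within 2 kb of fbxa-137 and nhr-59 as well. Of the abu genes, 4 had any pooled relaxed summit, and reads of their near-identical copies may be shared.

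**Figure D5:**
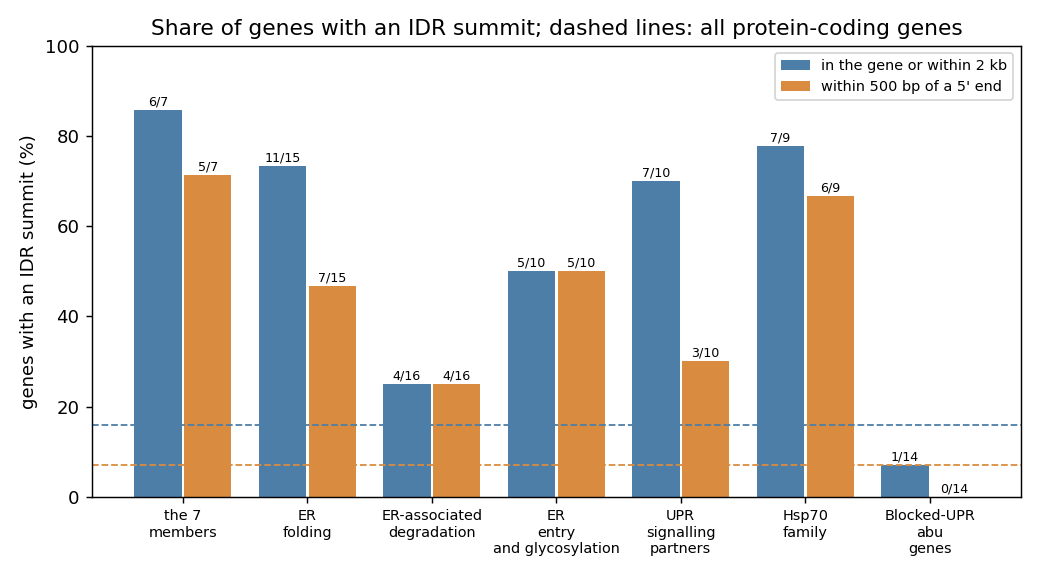
Share of genes (y axis, percent) with an IDR summit in the gene or within 2 kb (blue bars) and within 500 bp of a 5′ end (orange bars) for the 7 members and 6 lists of related genes, with counts above the bars; dashed lines give the shares over all protein-coding genes, 15.8% and 6.99%. The bars of the abu genes are at or below 7.14%, and those of the other lists are above both lines.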

How the data were processed

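Peak lists of LIN-13 from 2 biological replicates (fragments of 150 to 350 bp, per the labels) were analysed on ce11. Per the deposited listings, the authors called relaxed peaks on each replicate and on the pooled replicates with a control, and derived the IDR list from these. The sources used here name neither the peak caller nor the IDR threshold nor the aligner. The authors' signal value per peak has no stated scaling, and the deposited −log10 q-value was 3.166 for every IDR peak, so peaks were ranked by signal. The IDR list equalled the 2141 pooled peaks of highest signal, so it does not measure spread between animals. Depth is unknown. The ce10 lists and the control library were not analysed here.

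Genes came from Ensembl release 115 (WBcel235, the ce11 assembly) and sequence from the RefSeq copy of that genome. Positions count from 1, and mitochondrial peaks were left out except in ranks. Summits were assigned to genes within 2 kb and to 5′ ends within 500 bp, and replicate peaks to IDR peaks by 1 bp of overlap. The hsp-4 peak was aligned to hsp-3 with Biopython 1.88 (local, match 2, mismatch -3, gap open -5, gap extend -2). No test was run: there is 1 group, and the members and gene lists were chosen with earlier results of these data known. Named genes were the members, list genes with an IDR summit (up to 8 per list; 1 of them is not reported here) and the 3 peaks nearest in rank to each member. Genes without an IDR summit that are named, such as sel-1, and genes near a list peak were chosen after their values were seen. The list symbols sec-61, emo-1, atf-5 and abu-3 had no single match among the gene names and synonyms searched. The genes they stand for may be annotated under other symbols. The placing steps were tested on simulated data. Python 3.11.15, NumPy 2.4.6, pandas 2.3.3 and matplotlib 3.10.9 were used. Alternatives were single replicates, other list lengths, other distances, and other overlaps.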

Additional observations from a re-analysis of the deposited data

How the results depend on the processing

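The count of 6 members with an IDR summit in the gene or within 2 kb fell to 3 (hsp-3, xbp-1 and atf-6) in the 1070 highest IDR peaks, as did the 5 at a 5′ end. In the 4282 highest pooled peaks all 7 had a summit at both distances. Over all protein-coding genes, 3148 had one within 2 kb, against 1819 in the stricter list, 5239 in the looser list, 2039 at 500 bp and 4842 at 5 kb. With 1 replicate alone, 4 to 6 members had a summit within 2 kb and 4 to 6 at a 5′ end; atf-4 and hsp-4 were the genes lost with replicate 2 alone, and hsp-4 was added at a 5′ end with replicate 1 alone. The counts within 2 kb were then 24 to 27 for list genes and 3096 to 3160 for all genes. At a 5′ end, the share of all genes was 6.92% with replicate 1 alone and 6.66% with replicate 2 alone. At 200 bp from a 5′ end 4 members had a summit (atf-6 was lost), as had 3.43% of all genes, and at 1000 bp 6 (hsp-4 was added), as had 9.13%. At 500 bp the share of all genes was 3.95% in the stricter and 12.2% in the looser list. The 5 of 7 peaks shared by both replicates (71.4%, against 60.9% of nuclear IDR peaks) were 4 with overlap of at least 50% of both peaks (57.1% against 54.5%) and 6 in replicate lists of 4282 peaks (85.7% against 89.5%), near the share of all such peaks. No paired analysis was possible because only 1 condition was sampled. The files give no depth, and what depth limits was not tested.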
